A study of Drosophila melanogaster with 27 samples.

Results

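The RNA that came down with wild-type human TDP-43 was compared with the RNA of the lysate it came from, in the heads of *Drosophila melanogaster*. The samples were the 3 libraries labelled TDP-43 WT IP and the 3 labelled TDP-43 WT input, chosen by those labels alone and paired by lysate (WT-202, WT-502 and WT-505, after the numbers in the labels). These are 6 of the 27 libraries of the series. In a w background, the flies carried UAS TDP43WT-YFP, that is, human TDP-43 fused to yellow fluorescent protein (YFP), together with UAS mCD8-RFP on chromosome II, a membrane-bound red fluorescent protein (line TDP-92). The control flies carried yw;;P[UAS-2XEYFP]AH3 (GRYFP-5), which makes YFP alone. The third genotype of the series, line TDP-94, had UAS TDP43G298S-YFP in place of the wild-type fusion and was used only in the shared estimate of spread and in a check of labels. In all 3 genotypes the transgenes were driven by the split GAL4 line SS01276, which is active in a subset of adult Kenyon cells. The study also reports expression from this line in larval mushroom body neurons. Heads of adults of both sexes, 1 to 3 days old, were pooled for each lysate, and YFP was pulled down with GFP-Trap beads. By the study's account YFP alone accumulated to a far higher level than the fusion proteins, so the control pull-down was not matched in the amount of bait. The human TDP-43 transcript is not among the fly genes counted and was not read here.

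TDP-43 is a nuclear RNA-binding protein that shuttles to the cytoplasm, prefers UG-rich RNA and takes part in splicing, mRNA transport, mRNA stability and translation. Its mislocalisation and aggregation mark most amyotrophic lateral sclerosis and many frontotemporal dementias. Kenyon cells are the intrinsic neurons of the mushroom body, the learning centre of the fly brain, where dopamine and cyclic AMP signals change synapses during olfactory learning. In an RNA immunoprecipitation, a transcript with a higher share of the IP library than of the input library is called enriched, and one with a lower share depleted.

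The labels name both whole head and mushroom body Kenyon cells, and the input libraries held RNA of many cell types. Photoreceptor markers summed to between 23098 and 32180 CPM in the 3 inputs (CPM, the count of a gene scaled to a common library size after TMM normalization), fat body markers to between 21815 and 23686 CPM, muscle markers to between 12850 and 14978 CPM, and the 21 Kenyon cell markers to between 2290 and 3346 CPM. Markers of organs outside the head were also present and varied between lysates: in the order WT-202, WT-502 and WT-505, those of the accessory gland summed to 4247, 2351 and 651 CPM, those of the testis to 1079, 568 and 233 CPM, and those of the ovary and eggshell to 6.22, 30.7 and 465 CPM. Their part in the results below was not tested. In bulk lysates of this kind, fewer cells of a type and less RNA per cell cannot be told apart. The IP libraries held 8210348 to 10353143 counts and the inputs 18692447 to 102115249, lysate WT-502 having the deepest input and the shallowest IP. Lysate WT-502 also stood apart in another way: the deviations of its input and of its IP from their group means correlated across genes at r = 0.07, against 0.34 to 0.75 in the other 8 lysates of the series. Its label was checked on 10 genes that separated the other TDP-43 WT lysates from lysates G298S-503 and G298S-506 in every fraction, and all 3 libraries of lysate WT-502 lay on the TDP-43 WT side for 9 of them.

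Of 12921 genes tested, 1354 were enriched (10.5%) and 392 were depleted (3.03%) in the TDP-43 WT IP, at a change of more than 2-fold (a log2 fold change beyond 1) and a Benjamini-Hochberg adjusted p below 0.05 in edgeR's quasi-likelihood test. The enriched genes included 1235 protein-coding genes and 103 noncoding RNA genes, and the depleted ones 362 and 25. Among the enriched genes 303 passed 4-fold and 17 passed 16-fold, whereas only 16 depleted genes passed 4-fold. With the lysate as a replicate block the counts were 1393 enriched and 953 depleted. Without lysate WT-502 they were 891 and 233, of which 830 and 199 were among the genes called with all 3 lysates. Scaling by library size alone, in place of TMM, raised the median log2 fold change of all genes by 0.37 and gave 2214 enriched and 79 depleted genes, so that 96.6% of the calls were enriched in place of 77.5%. In the YFP control, run through the same model, 1330 genes were enriched (10.3%) and 183 depleted (1.42%).

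**Figure D1:**
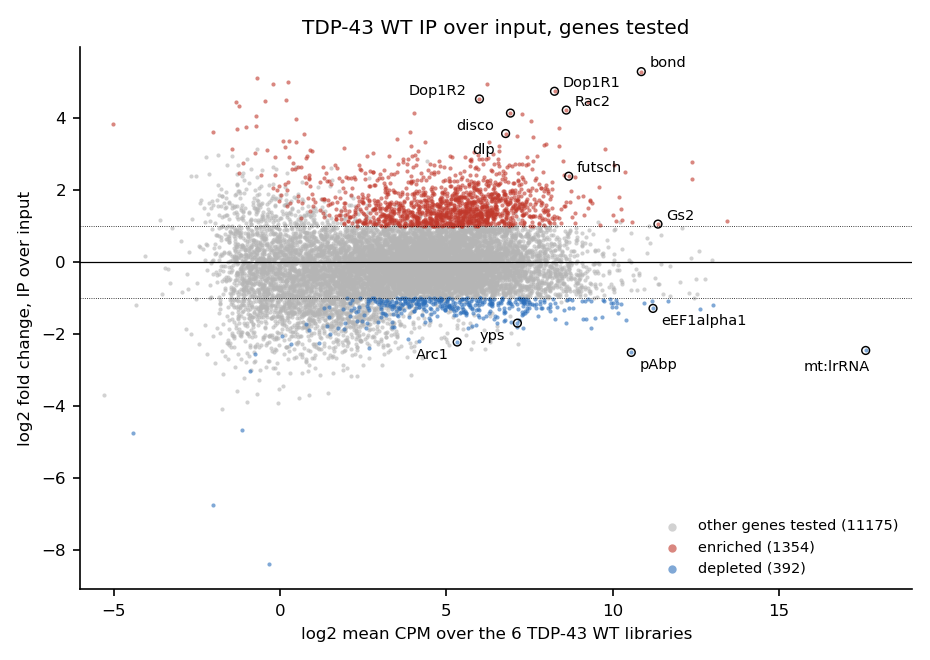
Log2 fold change of TDP-43 WT IP over input (vertical axis) against the log2 mean CPM of the 6 libraries (horizontal axis), 1 point per gene tested, with dotted lines at changes of 2-fold. The 1354 enriched genes (red) span low to high levels, and mt:lrRNA and pAbp stand out among the 392 depleted genes (blue) at high levels.

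The 12 protein-coding mRNAs with the largest enrichment, among those with a mean of at least 10 CPM and no overlap between IP and input, included both D1-type dopamine receptors, a heparan sulfate proteoglycan and a Hippo pathway kinase. The largest was bond, which encodes a fatty acid elongase. In the order of lysates WT-202, WT-502 and WT-505, bond stood at 100, 94.1 and 85.4 CPM in the inputs and at 3674, 2468 and 4738 CPM in the IPs. The groups lay far apart, and the log2 fold change was 5.28 ± 0.25 (SE, n = 3 lysates, adjusted p = 4.5e-09), against 0.93 ± 0.21 in the YFP control. Dop1R1, the D1-type dopamine receptor that olfactory learning in Kenyon cells depends on, rose from 21.0, 17.4 and 27.6 CPM to 489, 679 and 594 CPM, a log2 fold change of 4.74 ± 0.29 (adjusted p = 5.1e-08). Dop1R2, the second D1-type receptor and known for its part in forgetting, rose from 6.93, 3.57 and 5.68 CPM to 101, 124 and 141 CPM, a log2 fold change of 4.52 ± 0.27 (adjusted p = 4.2e-08). Both receptors were high in every IP library and low in every input, but no overlap was a condition for the choice of these 12. Over all genes tested, 22.3% had every IP above every input, and 18.6% had every IP below. Rac2, a small GTPase that remodels actin, rose from 35.0, 36 and 48.3 CPM to 696, 644 and 877 CPM (log2 fold change 4.22 ± 0.20, adjusted p = 4.5e-09).

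The others of these 12 were CG15210 (log2 fold change 4.44), disco (4.13), CG3097 (4.12), wts (3.92), kek1 (3.71), CG34290 (3.60), dlp (3.56) and rsh (3.50). disco encodes a zinc finger transcription factor needed for optic lobe wiring and clock neurons, wts the Hippo pathway kinase that restrains growth, and kek1 a transmembrane protein that inhibits the epidermal growth factor receptor. dlp, a glypican that binds Wnt and Hedgehog ligands at the cell surface, stood at 15.3, 15.6 and 20.5 CPM in the inputs and at 168, 175 and 266 CPM in the IPs. For dlp the YFP control gave 17.4 CPM in the input and 29.4 CPM in the IP (means of 3 lysates), a log2 fold change of 0.76 (adjusted p = 0.043). CG34290 showed the other pattern: it moved from 2.25, 2.42 and 2.18 CPM to 12.9, 46 and 24.9 CPM with TDP-43 WT, and its log2 fold change with YFP was 3.72, as large as the 3.60 with TDP-43 WT. kek1 and rsh were also enriched with YFP (2.65 and 1.70). In edgeR's direct test of the difference, given below, neither passed (adjusted p = 0.40 and 0.071). Dop1R1 (2.09), wts (1.67), disco (1.58) and Rac2 (1.24) were enriched with YFP too, but less than with TDP-43 WT.

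The 12 protein-coding mRNAs with the largest depletion, among those with a mean of at least 10 CPM and no overlap between IP and input, were led by pAbp. It encodes the cytoplasmic poly(A)-binding protein. pAbp fell from 1966, 2391 and 3350 CPM to 453, 406 and 492 CPM, a log2 fold change of -2.51 ± 0.36 (adjusted p = 1.1e-04). Arc1, whose product is derived from a retrotransposon Gag protein and forms RNA-carrying capsids, fell from 90.6, 49.7 and 58.0 CPM to 13.7, 12.4 and 16.3 CPM (log2 fold change -2.22 ± 0.30). For pAbp and Arc1 every IP library lay at least 3-fold below the input of its own lysate. yps, a Y-box RNA-binding protein of mRNA granules, fell from 216, 192 and 237 CPM to 66.2, 63.6 and 69.0 CPM (log2 fold change -1.70 ± 0.17, adjusted p = 3.9e-06). The rest of the 12 lay between -1.83 and -1.69: verm (a chitin deacetylase of the trachea), Tsp (thrombospondin), inaF-B (a partner of the TRP channel of photoreceptors), Zasp52 (a Z-disc protein of muscle), Ugt36F1 (a glycosyltransferase), HtrA2 (a mitochondrial protease), Acn (acinus, of the exon junction machinery), Gld (glucose dehydrogenase) and scyl (an inhibitor of TOR signalling). In the YFP control the log2 fold change of these 12 was also below 0, from -1.89 for Arc1 to -0.61 for inaF-B.

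**Figure D2:**
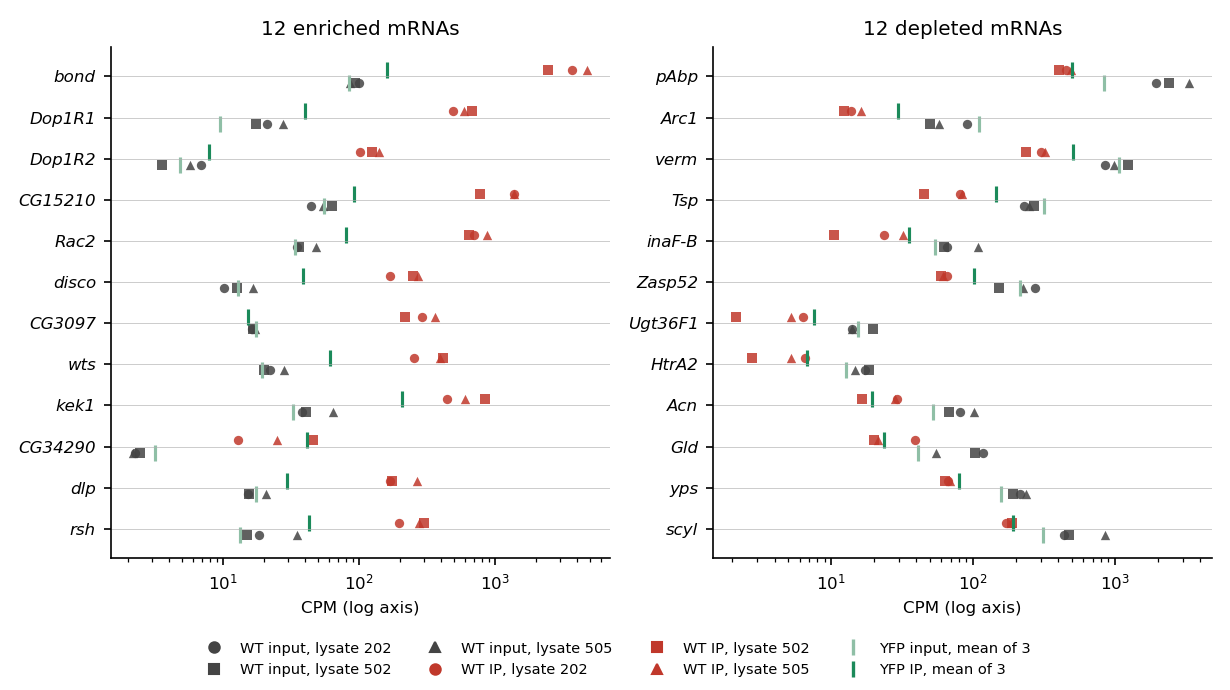
CPM (log axis) of the 12 mRNAs with the largest enrichment (left) and depletion (right) in each TDP-43 WT library, inputs in grey and IPs in red with 1 symbol per lysate, and the means of 3 YFP libraries as ticks. The 24 were chosen with a mean of at least 10 CPM and no overlap between the red and grey symbols. For bond, Dop1R2 and dlp the YFP IP tick lies well below the TDP-43 WT IPs, and for CG34290 it lies among the TDP-43 WT IPs.

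Receptors for biogenic amines, which carry dopamine, serotonin, octopamine and tyramine signals into neurons, had the highest median of the lists of neuronal surface proteins. Of 17 tested, 10 were enriched and none depleted, and their median log2 fold change was 1.46, against -0.09 over all genes tested. In the 10 lists described here and below as having none depleted by edgeR, DESeq2 also called none, and 10 members in all lay below the input at an unadjusted p below 0.05. Besides the D1-type receptors, the enriched aminergic receptors were 5-HT1A, Dop2R, Octbeta2R, Octbeta3R, 5-HT1B, TyrR, Octalpha2R and Oamb. DopEcR, a receptor for dopamine and ecdysone and the most abundant of them with Dop1R1, reached 0.95 ± 0.29 and did not pass the fold threshold. Peptide receptors were mixed, with 10 of 39 enriched and a median of 0.22, led by the myosuppressin receptor MsR2 at 2.24 ± 0.38. Of the neuropeptides, 1 of 41 was enriched and 1 depleted. Ilp3, an insulin-like peptide, moved from 47.8, 77.2 and 69.8 CPM to 198, 118 and 252 CPM. Nplp1, a neuropeptide precursor, moved from 169, 172 and 204 CPM to 85.5, 78.7 and 87.8 CPM.

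Of 12 acetylcholine receptor genes 6 were enriched, with a median of 0.82, led by nAChRalpha5 at 2.42 ± 0.47. Among 20 receptors for GABA and glutamate 5 were enriched and 1 was depleted. They included Rdl, the main GABA-gated chloride channel (1.59 ± 0.34), GluClalpha, a glutamate-gated chloride channel (1.46 ± 0.33), and GluRIIE, a subunit of the receptor at neuromuscular junctions (2.87 ± 0.38). The kainate-type receptor gene clumsy was the depleted one, at -2.0 ± 0.62, with input values of only 6.81, 3.08 and 3.80 CPM. Of 31 voltage-gated and leak channel genes 11 were enriched and none depleted. The potassium channel Elk had the largest change among them (2.66 ± 0.26, with inputs of 25.6, 22.8 and 30.7 CPM and IPs of 158, 168 and 174 CPM). The others included the calcium channel cac, the sodium channel para and the potassium channels Shaw, slo, Shab and eag.

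Of 77 immunoglobulin superfamily adhesion genes 36 were enriched and 2 depleted, with a median of 0.82. kek1 headed them, and Dscam2, which mediates repulsion between like neurites, stood at 24.6, 27.2 and 40.7 CPM in the inputs and 69.4, 114 and 111 CPM in the IPs (1.67 ± 0.22, adjusted p = 4.6e-05). Nrg, the fly neuroglian, changed by 1.28 ± 0.19, whereas DIP-lambda was depleted (-1.13 ± 0.38). Of 15 cadherins 4 were enriched, the atypical cadherin ft by 2.39 ± 0.29 and the fly E-cadherin shg by 1.47 ± 0.32. Of 31 axon guidance genes 14 were enriched and none depleted (median 0.85), with the receptor phosphatases Lar (2.20 ± 0.22) and Ptp99A (1.93 ± 0.31) and the semaphorin Sema1b (1.77 ± 0.18) among them.

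Wnt signals act through Frizzled receptors and the co-receptor Arrow, and 9 of 18 ligand and receptor genes were enriched (median 1.08, none depleted). fz moved from 10.5, 14.2 and 14.6 CPM to 52.8, 53.8 and 80.8 CPM (2.25 ± 0.29), arr from 19.1, 15.5 and 22 CPM to 59.4, 131 and 77.0 CPM (2.24 ± 0.29), and fz2 changed by 1.17 ± 0.29. Within the cell, 6 of 18 Wnt pathway genes were enriched, among them the transcription factor pan (2.27 ± 0.43), while arm, the fly beta-catenin, was depleted: 286, 177 and 216 CPM in the inputs against 124, 79.6 and 127 CPM in the IPs (-1.04 ± 0.20). Of 12 genes for heparan sulfate proteoglycans and the enzymes that build their chains 6 were enriched (dlp, sfl, dally, Hs6st, sotv and ttv; median 1.04).

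Of 22 BMP and activin pathway genes 7 were enriched, including the activin-like ligand daw (1.77 ± 0.30) and the transducer Smox (1.23 ± 0.19). Of 17 Notch pathway genes 7 were enriched. The receptor N moved from 40.5, 39.2 and 67.5 CPM to 255, 483 and 281 CPM (2.79 ± 0.28), and kuz, the protease that cleaves it, from 26.3, 29.3 and 38.1 CPM to 129, 278 and 176 CPM (2.63 ± 0.37). Of 28 genes of the EGF and FGF receptor pathways 10 were enriched, such as the phosphatase csw (1.58 ± 0.28). By edgeR and DESeq2 none of the genes of these 3 lists was depleted, and 2, 3 and 0 lay below the input at an unadjusted p below 0.05. Their enriched shares were 31.8%, 41.2% and 35.7%, against 10.5% over all genes tested, and their medians 0.70, 0.98 and 0.64. With YFP 11, 9 and 11 members were enriched, with medians of 1.02, 1.28 and 0.65.

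Among the learning genes of the cyclic AMP pathway 11 of 22 were enriched and none depleted, with a median of 0.98. They comprised 4 adenylyl cyclases (Ac13E at 2.12 ± 0.28, rut, Ac78C and Ac3), the kinase subunits Pka-R2 (1.82 ± 0.39), Pka-C1 (1.23 ± 0.42) and Pka-R1, Nf1, the phosphodiesterase Pde1c and the transcription factors CrebA and CrebB. Pka-C1 stood at 614, 612 and 613 CPM in the IPs and 238, 204 and 339 CPM in the inputs. tsr, the actin-severing cofilin, moved from 253, 376 and 338 CPM to 832, 439 and 1127 CPM (1.31 ± 0.25), with the smallest step in lysate WT-502.

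Microtubule and motor genes split. Of 41 tested, 7 were enriched and 2 depleted around a median of -0.19. futsch, the fly MAP1B, moved from 95.5, 124 and 176 CPM to 380, 1051 and 632 CPM (2.38 ± 0.31), and the kinesin unc-104, which carries synaptic vesicle precursors, changed by 1.35 ± 0.27. The tubulin gene alphaTub84D was depleted (-1.06 ± 0.20). Synaptic vesicle and active zone genes had a median of 0.31, with 8 of 38 enriched and 1 depleted. prt, a vesicular transporter of Kenyon cells, moved from 6.39, 3.63 and 3.80 CPM to 36.8, 20.3 and 31.2 CPM (2.69 ± 0.32), whereas Rop, which serves vesicle fusion, moved from 471, 366 and 439 CPM to 212, 156 and 217 CPM (-1.13 ± 0.17).

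Among regulators of transcription, 18 of 50 neuronal and mushroom body transcription factor genes were enriched and none depleted (median 0.97). Mef2, which marks Kenyon cells and muscle, moved from 46.1, 29.5 and 48.4 CPM to 219, 310 and 285 CPM (2.72 ± 0.22, adjusted p = 6.4e-07), and the homeodomain gene pros changed by 1.47 ± 0.22. Of 19 nuclear receptors 9 were enriched, with the activity-induced Hr38 at 2.11 ± 0.36. Hnf4, a regulator of lipid and sugar metabolism, moved from 43.4, 40.6 and 39.2 CPM to 80.1, 140 and 106 CPM. Of 34 Polycomb and Trithorax genes 8 were enriched and 1 was depleted, ph-p showing the largest change (2.81 ± 0.32) and the chromatin remodeller kis 1.56 ± 0.29. Of 58 genes for general factors and RNA polymerases 10 were enriched (17.2%) and 1 was depleted, with Taf12 the highest (1.79 ± 0.15), and of 28 Mediator subunits 5 were enriched (17.9%), with skd the highest (2.14 ± 0.36). The share over all genes tested was 10.5%.

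For genes whose products act on RNA the outcome depended on the kind. Of 25 neuronal RNA-binding protein genes 8 were enriched (median 0.70), among them the translational repressor pum (2.06 ± 0.29) and brat, msi, Imp, elav and 3 others. Of 37 SR and hnRNP genes 5 were enriched (13.5%, against 10.5% of all genes tested), with mub at 1.98 ± 0.39. Of 44 spliceosome genes 3 were enriched (median 0.03), the largest being hoip at 1.38 ± 0.37. In mRNA decay, the scaffold of the deadenylase complex Not1 was enriched (1.92 ± 0.25) and its catalytic partner twin depleted (-1.07 ± 0.21), within a list of 29 with 8 enriched and 2 depleted. TBPH, the fly ortholog of TDP-43, was called in neither direction: it stood at 72.2, 68 and 69.1 CPM in the inputs and 69.6, 54.5 and 82.6 CPM in the IPs, a log2 fold change of -0.02 ± 0.15 (adjusted p = 0.96).

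Genes of the translation machinery were seldom enriched. None of 86 cytosolic ribosomal protein genes passed in either direction by edgeR (13 did at an unadjusted p below 0.05 without the fold threshold, 2 above and 11 below the input, and none by DESeq2), and their median was -0.04. RpS3A, as an example, stood at 594, 529 and 549 CPM in the inputs and 437, 471 and 400 CPM in the IPs. Of 52 initiation and elongation factor genes 2 were enriched and 2 depleted, with a median of -0.47. eEF1alpha1 fell from 4265, 2658 and 3187 CPM to 1428, 1569 and 1141 CPM (-1.29 ± 0.17), whereas Thor, the fly 4E-BP that blocks cap-dependent initiation, rose from 189, 221 and 190 CPM to 556, 934 and 417 CPM (1.67 ± 0.26). Of 34 aminoacyl-tRNA synthetase genes none was enriched and 5 were depleted (median -0.70), including AlaRS (-1.19 ± 0.21) and SerRS (-1.17 ± 0.24), and only 2 of the 34 had a log2 fold change above 0. None of them lay above the input at an unadjusted p below 0.05. Ribosome biogenesis genes had 1 enriched and 3 depleted of 45, the depleted ones including Non1 (-1.08 ± 0.14) and Rrp6 (-1.18 ± 0.26).

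In housekeeping metabolism and protein turnover, glycolysis, proteasome and V-ATPase genes had medians below that of all genes tested (-0.09). Nuclear oxidative phosphorylation genes had a median nearer to it. The medians of these lists with YFP, given below, were also below 0. Of 18 glycolysis genes 4 were depleted (median -0.86), Gpo1, the mitochondrial partner of the glycerophosphate shuttle, by -1.37 ± 0.17. Of 46 proteasome subunits 3 were depleted (median -0.68), including the ubiquitin receptor Rpn10 (-1.11 ± 0.22). Of 29 V-ATPase subunits (median -0.56) only Vha100-2 was depleted (-1.01 ± 0.20). The depleted shares of glycolysis, proteasome and V-ATPase genes were 22.2%, 6.52% and 3.45%, against 3.03% over all genes tested. By edgeR and DESeq2 no gene of these 3 lists was enriched, and 1, 1 and 2 lay above the input at an unadjusted p below 0.05. Of 85 nuclear genes of oxidative phosphorylation 3 were depleted (3.53%, near the share over all genes) and 1 enriched, with a median of -0.19. Their median ratio was 0.18, -0.45 and -0.23 in lysates WT-202, WT-502 and WT-505. ND-75 changed by -1.28 ± 0.18 and the ATP synthase subunit blw by -1.15 ± 0.14, while the small complex I subunit ND-AGGG changed by 1.33 ± 0.19.

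The mitochondrial large ribosomal RNA mt:lrRNA made up 25.7 to 33.9% of the counts of the 3 inputs and 6.51 to 7.76% of those of the IPs (log2 fold change -2.46 ± 0.22, adjusted p = 1.4e-06), and in YFP 24.5 to 26.9% and 10.9 to 13.7%. With mitochondrial and rRNA genes left out the counts were 1422 enriched and 326 depleted. Of 13 mRNAs encoded in mitochondria 3 were enriched and 1 was depleted. mt:ND6 rose from 356, 229 and 270 CPM to 1418, 2752 and 1313 CPM, and mt:ND4L fell from 337, 420 and 205 CPM to 119, 119 and 102 CPM. mt:ATPase6, which encodes an ATP synthase subunit, changed by 1.13. No strand setting of the counting is given in the sources used here, so reads of overlapping genes on opposite strands cannot be told apart. Among the genes above this touches bond, Smox, Hr38, skd, Not1, tsr, Ptp99A, Lar, GluRIIE, kis, pros, CG34290 and rut, each enriched and opposite another enriched gene. It also touches the depleted Zasp52, which lies opposite the enriched gene tun. Overlaps were looked up only for the genes picked by the rule given with the processing, so other genes may be touched too. The overlap of rut was found through the enriched lncRNA:CR45522. On the same strand, futsch overlaps the enriched gene Gr2a, unc-104 the enriched CG42392, the depleted twin the enriched CG17786, and mt:ND4L overlaps mt:ND4, so the counting may have split or shared their reads.

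Hsp70Bb, one of the near-identical heat-inducible Hsp70 genes, whose reads the counting may have split between copies, stood at 17.1, 2.6 and 4.70 CPM in the inputs and 89.5, 30.4 and 62.6 CPM in the IPs (2.94 ± 0.60, adjusted p = 0.0015). It was the only one of 6 Hsp70 genes enriched. Of 23 constitutive chaperones 1 was enriched and 1 depleted, with a median of -0.44, 2 members above 0 and 13 below the input at an unadjusted p below 0.05: the co-chaperone DnaJ-1 changed by 1.92 ± 0.33 and Hsc70-4, the constitutive cytosolic Hsp70, by -1.25 ± 0.18. None of 7 small heat shock protein genes passed in edgeR or DESeq2, and 1 did at an unadjusted p below 0.05.

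Of 21 Kenyon cell markers 11 were enriched and none depleted, a share of 52.4%, and their median was 1.09. Over all genes tested 10.5% were enriched and 3.03% depleted, with a median of -0.09. In the YFP pull-down 8 of the 21 were enriched and none depleted, with a median of 0.91. The 11 were Dop1R1, Dop1R2, Dop2R, Mef2, prt, ey, rut, dac, Oamb, trio and toy, and their list's summed level was 4990 to 5771 CPM in the IPs against 2290 to 3346 CPM in the inputs. The list shares genes with the receptor, cyclic AMP and transcription factor lists above. The other 10 markers, among them the memory gene dnc, the neuropeptide gene sNPF and the adhesion gene Fas2, passed in neither direction. A list of neuronal markers, some pan-neuronal and some of single transmitter types, had 8 enriched and 1 depleted of 19. The depleted one was Gad1, the enzyme that makes GABA, a marker of GABA neurons and not of all neurons (1352, 1154 and 1437 CPM against 676, 564 and 686 CPM).

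Photoreceptor markers had 2 enriched and 3 depleted of 27 (median -0.50): norpA, the phospholipase of phototransduction, was enriched by 1.82 ± 0.40, and chp, an adhesion protein of the rhabdomere, was depleted by -1.55 ± 0.24. Muscle markers had 4 enriched, among them the giant kinase bt (1.34 ± 0.43), and 4 depleted of 28. Each is a share of 14.3%, against 10.5% enriched and 3.03% depleted over all genes tested. Of 21 glia markers 1 was enriched and 2 depleted: Gs2, the glutamine synthetase of glia, by 1.05 ± 0.16, and nrv2, a sodium pump subunit, by -1.53 ± 0.19 among the depleted. Of 23 fat body markers, fit, a satiety signal that lies opposite the enriched gene CG31465, was the enriched one (2.37 ± 0.50) and Yp1, a yolk protein, the depleted one (-1.20 ± 0.25). Testis and ovary markers, as well as those of the accessory gland, had none called by edgeR or DESeq2, and 1 testis marker lay above and 1 below the input at an unadjusted p below 0.05. The median log2 fold change of the 23 testis markers was -0.99.

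Of 80 cytochrome P450 genes 3 were enriched and 6 depleted, from Cyp18a1, which inactivates ecdysone (2.86 ± 0.24), to Cyp6a23 (-1.68 ± 0.26). GstD11 led 4 enriched genes of 32 glutathione S-transferases: 3.26, 3.25 and 3.35 CPM in the inputs and 26.7, 17.1 and 24.2 CPM in the IPs (2.79 ± 0.22, adjusted p = 5.5e-07). Among odorant-binding proteins Obp99a (1.46 ± 0.24) and Obp19d (1.03 ± 0.23) were enriched, the only 2 called of 33. Of 46 cuticle protein genes 2 were enriched and 3 depleted, the depleted ones including Cpr47Ee (-1.48 ± 0.16) and Cpr100A (-1.14 ± 0.15). Of 21 antimicrobial peptide genes 3 were enriched (14.3%), among them BomS3 (1.80 ± 0.25). The enriched share was 12.5% for the glutathione S-transferases and 10.5% over all genes tested.

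Noncoding RNAs held some of the largest changes. Of 531 long noncoding RNA genes tested 65 were enriched (12.2%) and 5 depleted (0.942%), with a median of 0.43. Of 433 antisense RNA genes 37 were enriched (8.55%) and 19 depleted (4.39%), with a median of -0.13. Over all genes tested the shares were 10.5% and 3.03%. asRNA:CR44062 moved from 4.50, 4.92 and 4.72 CPM to 148, 58.1 and 226 CPM (4.93 ± 0.40). It lies opposite bond, and asRNA:CR45518 (3.04 ± 0.33) lies opposite the enriched gene CG12730, so without strand their reads may belong to those genes. lncRNA:CR40469 moved from 694, 1406 and 1978 CPM to 10035, 3548 and 14115 CPM, and lncRNA:CR34335, which overlaps DIP-alpha, from 952, 2554 and 1915 CPM to 9659, 3210 and 13899 CPM. For both of these abundant RNAs the step was smallest in lysate WT-502. lncRNA:CR43461 (4.15 ± 0.38) and lncRNA:CR45522 (3.21 ± 0.34), which overlaps rut, were also among the largest. lncRNA:roX2, a guide of dosage compensation on the male X chromosome, rose from 28.8, 30.8 and 34.1 CPM to 74.3, 92.9 and 81.0 CPM. lncRNA:CR42862 (-1.59 ± 0.23) and asRNA:CR45601 (-1.30 ± 0.25) were depleted, the latter lying opposite the depleted gene Yp1.

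The ratios spread most widely in lysate WT-502. The SD of the log2 ratio of IP to input over all genes tested was 0.90 in lysate WT-202, 1.36 in lysate WT-502 and 0.97 in lysate WT-505. Of the enriched genes 987 had their largest ratio in lysate WT-502, and of the depleted genes 273 had their lowest there. The median ratio of the enriched genes was 1.29, 1.99 and 1.31 in lysates WT-202, WT-502 and WT-505. Depth and the weak link between input and IP both set lysate WT-502 apart, and their part in this spread was not tested. Of the 123 genes followed through alternative settings, 16 no longer passed both thresholds without it. They were GluClalpha (log2 fold change 1.08 without lysate WT-502), clumsy (-1.80), DIP-lambda (-1.18), shg (0.81), fz2 (0.66), unc-104 (0.92), alphaTub84D (-0.85), Pka-C1 (1.09), hoip (1.27), Non1 (-0.97), SerRS (-0.68), mt:ATPase6 (0.73), Rpn10 (-0.81), norpA (1.10), bt (0.82) and Gs2 (0.84).

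**Figure D3:**
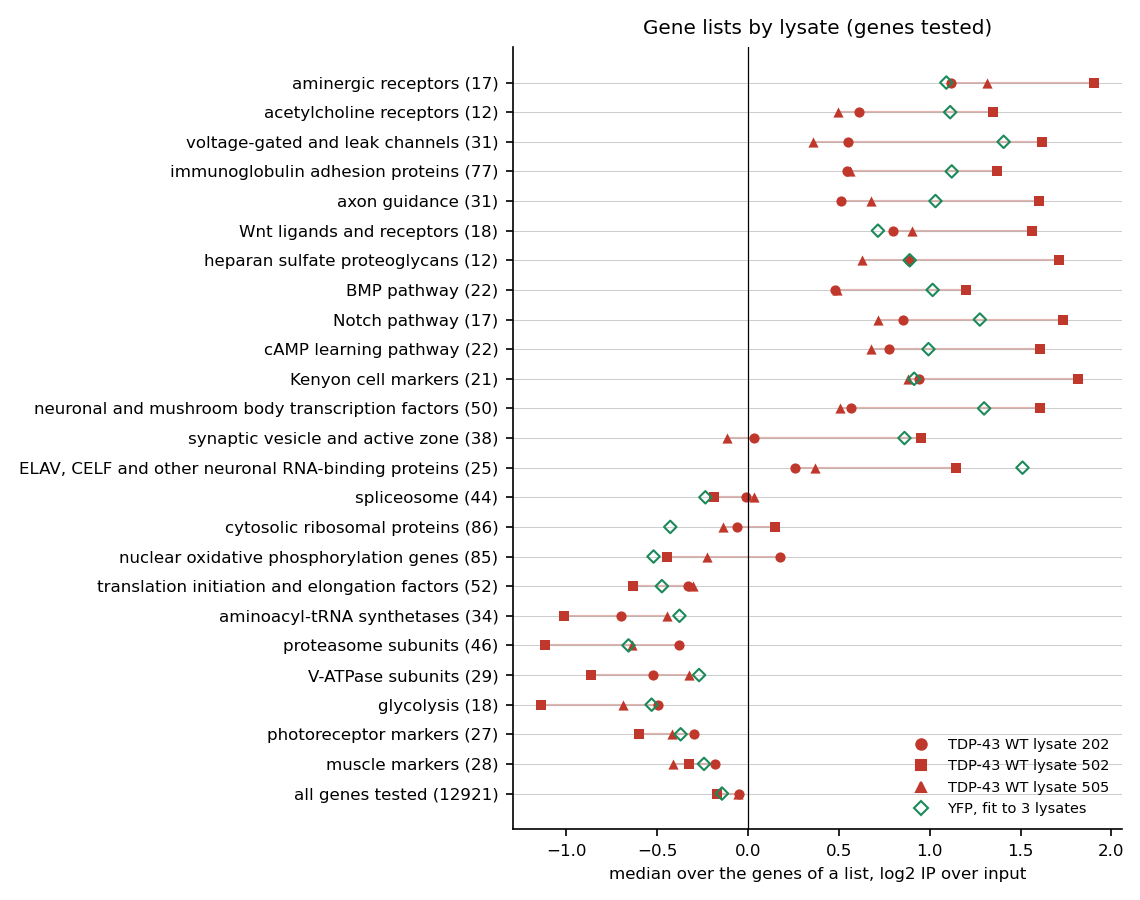
Median log2 ratio of IP to input over the genes of each list (number tested in parentheses) in each TDP-43 WT lysate (red symbols), with the median fitted log2 fold change in YFP (green diamonds). Receptor, adhesion, signalling and Kenyon cell lists lie right of 0 in all 3 lysates, proteasome, glycolysis and synthetase lists left of 0, and lysate WT-502 lies farthest out for most of them.

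Many of these genes were also enriched with YFP alone. Of the 1354 genes enriched with TDP-43 WT, 834 (61.6%) were also enriched with YFP, and their median log2 fold change in YFP was 1.26 against 1.52 in TDP-43 WT. Of the 392 depleted genes 52 (13.3%) were also depleted with YFP, against 1.42% of all genes tested. Their median log2 fold change was -0.73 in YFP against -1.19 in TDP-43 WT, and 7 of the 392 lay above 0 in YFP. In the direct test given below, 5 of the 392 were lower with TDP-43 WT than with YFP. Voltage-gated channels had a median of 1.41 with YFP against 0.82 with TDP-43 WT, and neuronal RNA-binding proteins 1.51 against 0.70. Medians were also higher with YFP for, among others, Notch pathway genes (1.28 against 0.98), nuclear receptors (1.44 against 1.02), neuronal and mushroom body transcription factors (1.30 against 0.97) and immunoglobulin adhesion genes (1.12 against 0.82). They were lower with YFP for aminergic receptors (1.09 against 1.46), Wnt ligands and receptors (0.72 against 1.08) and heparan sulfate proteoglycans (0.89 against 1.04). Lists with medians below 0 were low with YFP too: proteasome subunits (-0.66 against -0.68), initiation and elongation factors (-0.47 against -0.47) and glycolysis (-0.53 against -0.86). The YFP median was -0.38 against -0.70 for aminoacyl-tRNA synthetases and -0.27 against -0.56 for V-ATPase subunits. For nuclear oxidative phosphorylation genes it was -0.52 against -0.19, and for cytosolic ribosomal proteins -0.43 against -0.04. The difference between the 2 pull-downs was tested directly in the same model. It passed an adjusted p of 0.05 in 174 genes that were higher with TDP-43 WT (1.35%) and in 14 that were lower (0.108%). Of the 174 genes, 144 were enriched over input with TDP-43 WT and 13 with YFP, and their median difference was 1.68 on the log2 scale. Among the 21 Kenyon cell markers 5 were higher with TDP-43 WT: Dop1R1, Dop1R2, Dop2R, prt and ey. Of 17 aminergic receptors 3 were, the dopamine receptors just named. By edgeR, no gene of the Wnt ligands and receptors, the voltage-gated channels, the axon guidance genes or the cyclic AMP pathway passed this test at an adjusted p below 0.05. At an unadjusted p below 0.05 these 4 lists held 1, 2, 2 and 2 higher and 2, 5, 2 and 1 lower in that order. The count fell to 81 genes higher without lysate WT-505 and to 71 without lysate YFP-902, and it was 152 with the lysate as a replicate block and 197 without lysate WT-502. The genes of these lists that passed neither way were not thereby shown to behave alike in the 2 pull-downs.

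**Figure D4:**
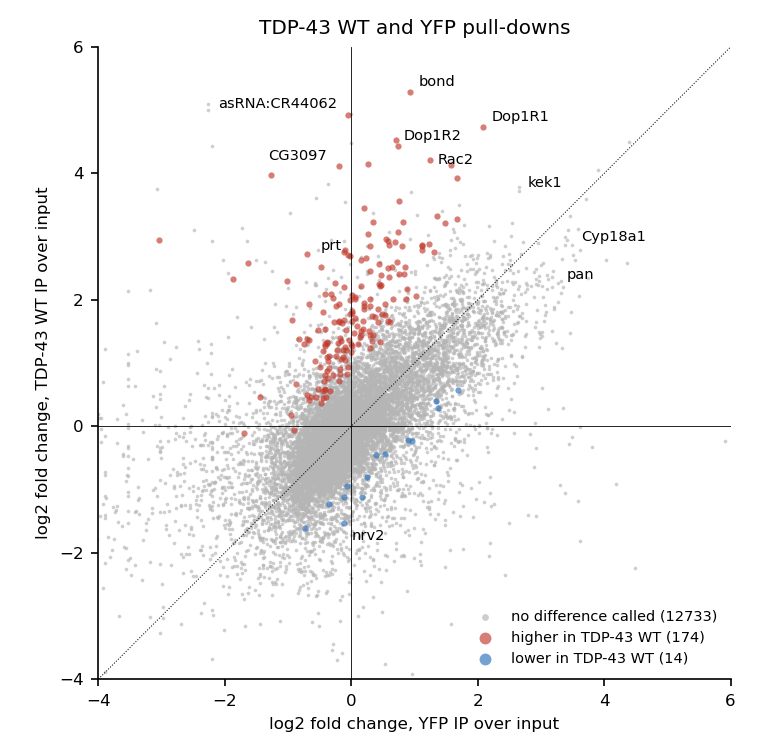
Log2 fold change of IP over input with TDP-43 WT (vertical axis) against that with YFP alone (horizontal axis), 1 point per gene tested. Points beyond the axes are not drawn, and the dotted line marks equal change. The 174 genes higher with TDP-43 WT (red) include bond, CG3097, asRNA:CR44062 and Dop1R2, while pan and Cyp18a1 lie below the line. kek1 lies above the line but is not among the 174.

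The unbound fraction, what the beads left behind, gave a second view of the same lysates. In the fit to all 27 libraries, 1215 genes were higher (9.1%) and 1041 lower (7.8%) in the TDP-43 WT unbound than in the input at an adjusted p below 0.05. Of the enriched genes 171 were lower in the unbound fraction and 139 higher, with a median log2 fold change of -0.38, against 0.08 over all genes tested. Dop1R1 reached -1.40 in the unbound fraction and dlp -0.92, whereas Rac2 was at -0.21 and bond at -0.18. The depleted genes also had a median below 0, at -0.26.

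Enriched and depleted mRNAs differed in length, measured on the longest annotated transcript of each protein-coding gene. The median 3' UTR was 869 bases in the 1235 enriched genes, 210.5 in the 362 depleted genes and 210.0 in the rest. Median coding lengths were closer together (1752, 1791 and 1176 bases), and the median summed introns were 3469, 695 and 260 bases. Divided into 4 classes of equal size by 3' UTR length, 24.7% of the genes with the longest 3' UTRs were enriched, against 4.23% of those with the shortest. The same pattern was present with YFP, at 30.8% and 2.17%. Within the class with the longest transcripts, of 4 by transcript length, 37.5% of the genes with the longer 3' UTRs were enriched and 10.4% of those with the shorter. Across the 11786 protein-coding genes, as a description, Spearman's rho between log2 fold change and 3' UTR length was 0.28 with TDP-43 WT and 0.38 with YFP, and with transcript length 0.11 and 0.31. The difference between TDP-43 WT and YFP ran the other way with transcript length (rho -0.30): the 155 protein-coding genes higher with TDP-43 WT had a median transcript of 2356 bases, against 3965.5 in the 1108 enriched genes that were not higher than with YFP. With the mean input CPM rho was 0.05, and the enriched share ranged from 5.39% to 14.7% over 6 classes of input level.

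**Figure D5:**
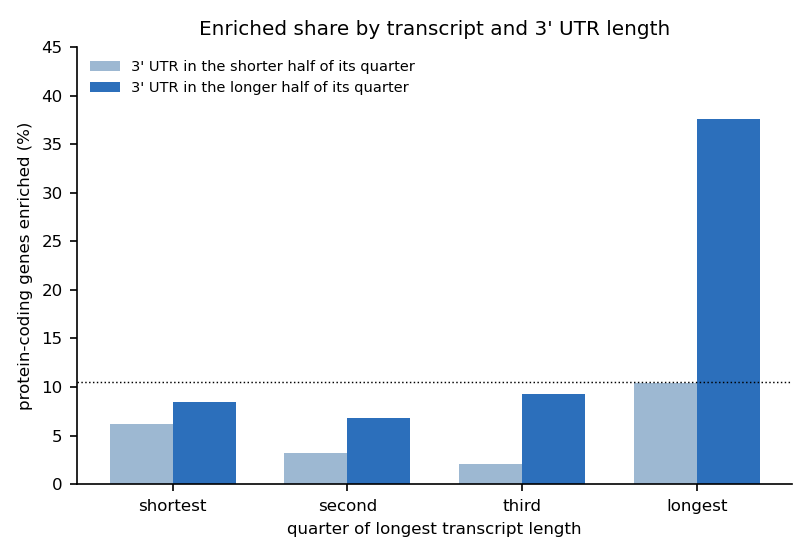
Percent of protein-coding genes enriched with TDP-43 WT (vertical axis) in each of 4 classes of transcript length (horizontal axis), with the genes of each class divided at the middle of 3' UTR length. The dotted line marks the share over all genes tested. The share was 37.5% for long transcripts with the longer 3' UTRs and 10.4% for long transcripts with the shorter ones.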

How the data were processed

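The authors deposited whole-number counts of reads per gene for 27 libraries, made from SMART-Seq HT PLUS cDNA of pooled head lysates. The submitters' processing notes name bcl2fastq 2.19.1.403, cutadapt 2.7, STAR 2.6.1d and featureCounts 1.6.3. The genome build and strand setting are not given in the sources used here. Of 17529 genes in the table, 17425 matched a gene model of the Ensembl BDGP6.54 annotation, which gave biotypes and lengths.

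TMM-scaled counts of the 18 IP and input libraries, 6 groups of 3, were fitted with edgeR 4.0.16 (R 4.3.3; filterByExpr, glmQLFit, glmQLFTest, two-sided), so that all groups shared one estimate of spread. The SE is the log2 fold change divided by the square root of F. CPM are TMM-scaled, and ratios of single lysates use a prior count of 2. The pipeline was tested on simulated data. Replicates are separate lysates of pooled flies. Input and IP of one number come from one lysate, so the numbers pair the samples, and a replicate block was fitted as an alternative (r of deviations within lysates WT-202, WT-502 and WT-505: 0.68, 0.07 and 0.75).

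Alternatives were DESeq2 1.42.0, other scalings and filters, other sets of libraries, the block, the unbound fraction as reference, and leaving out each lysate. Depth was 1848426 to 157035496 counts per library.

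The gene lists (70, described by counts and medians without a set test) and the genes named were chosen with earlier results of these data known. Named genes are the 12 protein-coding genes with the largest change each way (both thresholds, no overlap of IP and input, mean of at least 10 CPM), for each list the 2 most abundant members and the largest change each way, 5 noncoding genes each way, and dlp, futsch, Dscam2, Rac2, fz, Hsp70Bb and TBPH. Other genes appear as members of a list or by name in a comparison and were chosen after their values were seen. Of the list names, 41 matched no gene of the table. Results for a few genes and lists are not reported here.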

Additional observations from a re-analysis of the deposited data

Results flagged for a closer look

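The log2 fold change of IP over input differed between TDP-43 WT and YFP in 22 of the genes described above, by the direct test of the difference in edgeR's model (adjusted p below 0.05 over 12921 genes). The values are TDP-43 WT minus YFP on the log2 scale, with 3 lysates in each group. Among the mRNAs with the largest enrichment the difference was 4.36 for bond, 4.31 for CG3097, 3.82 for Dop1R2, 3.71 for CG15210, 2.97 for Rac2, 2.80 for dlp, 2.65 for Dop1R1, 2.55 for disco and 2.26 for wts. Among members of the gene lists it was 2.89 for GstD11, 2.71 for prt, 2.27 for GluRIIE, 2.05 for tsr, 1.96 for Ilp3 and 1.92 for ft. Among noncoding RNAs it was 4.99 for asRNA:CR44062, 3.88 for lncRNA:CR43461, 3.33 for lncRNA:CR34335, 2.88 for lncRNA:CR40469 and 2.78 for asRNA:CR45518. It was below 0 for nrv2, at -1.41, and for Nplp1, at -0.996.

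Of these 22 differences 21 held with the lysate as a replicate block, the exception being Nplp1. Without lysate WT-505 the test lost Ilp3, Nplp1, GluRIIE, ft, nrv2, lncRNA:CR40469 and lncRNA:CR34335. Leaving out each of the other lysates of both groups kept 17 to 19 of them. These settings were chosen after seeing the data. The amount of YFP bait was not matched between the groups, and its part in the differences was not tested.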

How the results depend on the processing

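Scaling by library size alone gave 2214 enriched and 79 depleted genes, and testing against a 2-fold change (glmTreat) 398 and 17. The unbound fraction as the reference in place of the input gave 2113 and 638. Leaving out 1 TDP-43 WT lysate at a time gave 891 to 1365 enriched and 233 to 501 depleted genes, the lowest of both without lysate WT-502. These fits kept the genes tested with all lysates, a choice made after seeing the data. Running the filter on low counts again moved each count by at most 0.998%. With the lysate as a replicate block the counts were 1393 and 953, and 1559 and 983 when only the 6 TDP-43 WT libraries were fitted. Beside the depleted count, the block ended the call of Vha100-2 (-0.96) and made that of ATPsynC, among the 123 genes followed through the alternatives. The other alternatives gave 1224 to 1465 enriched and 287 to 528 depleted genes, DESeq2 1321 and 528. For the difference between TDP-43 WT and YFP, 188 genes in both directions, alternatives chosen after seeing the data gave 170 with the replicate block and 247 by library sizes alone, and leaving out 1 lysate of either group gave 75 to 224.

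For the genes named, 1657 of 1839 values under the alternatives kept their direction and side of the thresholds, 158 lost a call (59 of them against the 2-fold null, 30 with the unbound reference and 22 by library sizes alone), 14 gained one and 10 reversed. RpS3A turned to 0.0192 by library sizes alone and Gad1 to 0.0369 with the unbound reference. TBPH turned to 0.36 by library sizes alone, 0.0250 without mitochondrial and rRNA genes, 0.0412 with the 6 TDP-43 WT libraries only, 0.0354 with all 27 libraries, 0.39 with the unbound reference, 0.0209 with the block in the 6 libraries and, over the lysates left out in turn, from -0.17 to 0.11, with 0.00187 without lysate WT-202 and the highest without lysate WT-502. Without lysate WT-202 the calls of DIP-lambda (-1.22), arm (-0.93), Pka-C1 (1.17), twin (-0.94), Vha100-2 (-0.74), Obp19d (0.84) and bt (1.58) ended, and without lysate WT-505 those of clumsy (-2.11), DIP-lambda (-0.98), Pka-C1 (1.47), hoip (1.33) and bt (1.55). Of 69 lists 46 had a median above that of all genes, and 42 to 50 under the alternatives. The median 3' UTR of enriched genes was 662 bases on the transcript with the longest coding sequence. The causes of these changes were not tested.

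With 3 lysates a group, and with lysate WT-502 apart from the other lysates in spread and in the link between its input and IP, changes near 2-fold are the least certain, and 735 of the 1354 enriched genes exceeded 2-fold in every lysate. No UG repeat was counted, because no transcript sequence was used here.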
